A study of Homo sapiens with 6 samples.

Results

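The enzymes described here are 9 that carry carbon through the pentose phosphate pathway or make NADPH, chosen by gene symbol from the 26485 genes counted. They were PGLS and PGD of the oxidative branch, RPIA, RPE, TKT and TALDO1 of the non-oxidative branch, and the NADP-linked dehydrogenases ME1, IDH1 and IDH2. RNA-seq was performed on THP1 cells, a human acute monocytic leukemia line grown in RPMI medium with serum, after 6 h with Withaferin A (WFA) or with its DMSO vehicle alone. WFA is a steroidal lactone of Withania somnifera whose effect on gene expression the experiment was set up to examine. Each group had 3 libraries, numbered 1 to 3 for 3 independent experiments, so 1 cell line stands for the disease. The concentration is written as 1 mM in the labels and as 1 μM in the methods, and which was used cannot be told from the counts.

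The pentose phosphate pathway branches off glycolysis at glucose 6-phosphate. Its oxidative branch makes NADPH and ends in ribulose 5-phosphate, and its reversible non-oxidative branch converts pentose phosphates to and from the sugars of glycolysis. NADPH supplies electrons to glutathione and thioredoxin reductases, to sterol and fatty acid synthesis and, in phagocytes, to the NADPH oxidase. Several genes that supply NADPH are known targets of the oxidative stress factor NRF2, which binds the antioxidant response element.

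WFA raised the transcripts of 5 of the 9 enzymes and lowered those of another 2. ME1 rose 5.83-fold, PGD 3.48-fold, IDH1 1.96-fold, TALDO1 1.91-fold and TKT 1.58-fold. RPE and RPIA, which interconvert the pentose phosphates, fell to 0.597 and 0.623 of their DMSO level. PGLS and IDH2 did not pass the test. Among all 12854 tested genes 25.8% were called higher and 24.7% lower, so that 50.5% were called in either direction, by edgeR's quasi-likelihood test with a threshold of 0.05 on the adjusted p. The median log2 fold change was 0.66 over the 9 enzymes and 0.02 over all tested genes. All 9 passed the filter on low counts, and the lowest count of any of them was 308 reads. In RNA from a whole culture, fewer cells that express a gene and less RNA per cell cannot be told apart.

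Total counts per library lay between 11006035 and 13872810. Expression is given as CPM, the gene's count scaled to the size of its library after TMM normalization. All 12 monocytic markers examined were detected above the filter, and their summed level was 2927 to 3502 CPM with DMSO and 2658 to 3458 CPM with WFA. Of these, 2 were called higher and 6 lower with WFA, against 25.8% and 24.7% of all tested genes. Much of the sum came from LYZ, which had 1506 to 2035 CPM with DMSO and 1380 to 2088 CPM with WFA and was not called. Of 12 markers of other cell types, 7 had at most 3 counts in every library, with KRT5, COL1A2 and INS at 0 in every library. The summed level of the 12 was 356 to 403 CPM with DMSO and 319 to 337 CPM with WFA, nearly all of it from PECAM1, which monocytic cells also express. COL1A1, a collagen gene on that list, went from 0.453 to 9.94 CPM with WFA, and its part in the results was not tested. The 9 enzymes together took 0.117% to 0.133% of the reads of the DMSO libraries and 0.210% to 0.216% of those of the WFA libraries. CPM of the 3 WFA libraries lay above that of the 3 DMSO libraries for 5 of the 9 and below it for 3, against 29.6% and 28.5% of all tested genes.

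**Figure D1:**
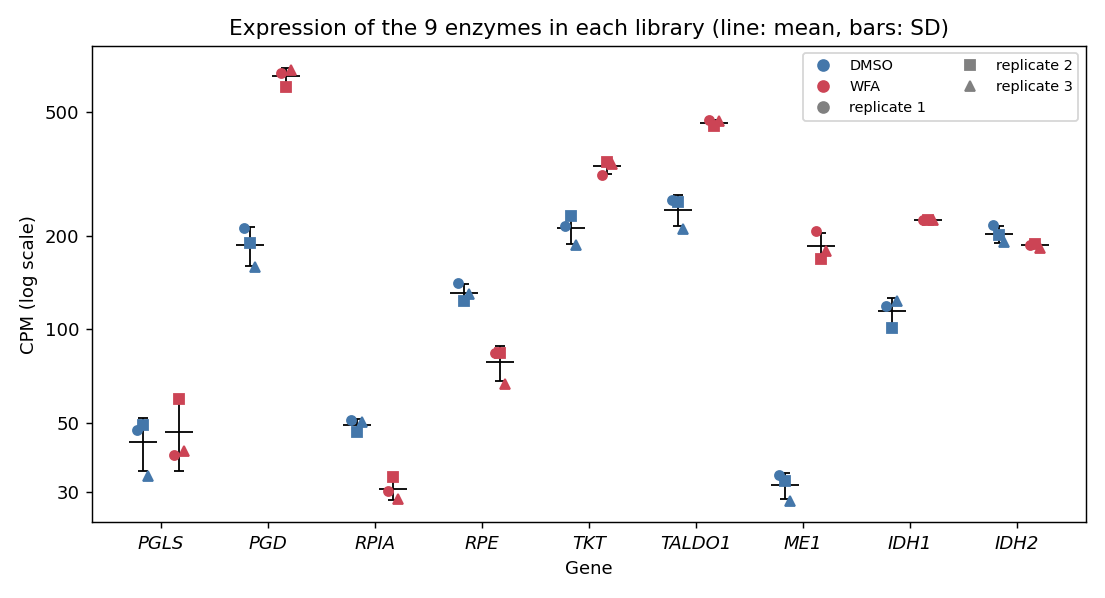
CPM of the 9 enzymes on a log axis, with 1 symbol per library (blue DMSO, red WFA, shape by replicate), the group mean as a line and the SD as bars (n = 3). The groups lie apart for every gene except PGLS, whose DMSO libraries span 34.0 to 49.2 CPM and whose WFA libraries span 39.4 to 60.0 CPM.

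The sequences before the start site are shown for ME1 and PGD, the members with the largest rises, and for RPE, the member with the largest fall, because each held the core of the antioxidant response element. These 3 were chosen after their values were seen. They are the bases ahead of the RefSeq start (GRCh38.p14), cut where an exon of that gene in GENCODE 29 begins, and capitals mark the match to TGACNNNGC on either strand. The ME1 sequence is chr6:83431072-83431301 on the minus strand, and those of PGD and RPE are chr1:10398814-10399043 and chr2:210002388-210002564 on the plus strand.
ME1: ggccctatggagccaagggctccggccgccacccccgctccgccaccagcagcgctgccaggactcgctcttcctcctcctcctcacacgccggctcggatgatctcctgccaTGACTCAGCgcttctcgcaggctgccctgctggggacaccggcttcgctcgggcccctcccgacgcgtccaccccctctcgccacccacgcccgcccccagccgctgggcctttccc
PGD: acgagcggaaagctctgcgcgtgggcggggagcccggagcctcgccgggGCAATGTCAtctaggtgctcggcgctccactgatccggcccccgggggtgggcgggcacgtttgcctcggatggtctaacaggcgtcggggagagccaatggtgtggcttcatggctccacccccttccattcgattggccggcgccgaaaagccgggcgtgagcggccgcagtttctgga
RPE: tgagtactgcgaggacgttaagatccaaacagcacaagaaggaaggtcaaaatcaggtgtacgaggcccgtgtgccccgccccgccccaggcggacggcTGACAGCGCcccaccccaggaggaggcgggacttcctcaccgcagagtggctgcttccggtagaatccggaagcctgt
In ME1 the match lay 137 to 129 bases ahead of the start and read TGACTCAGC. It overlaps a match to TGANTCA, the AP-1 site, whose pattern reads the same on both strands. In PGD it lay 201 to 193 bases ahead on the opposite strand, and longer GENCODE transcripts of PGD begin further upstream, so that this window lies in their intron. In RPE it lay 151 to 143 bases ahead. Within 250 bases ahead of the start, 3 of the 9 members held TGACNNNGC, against 12.2% of 9602 tested genes and 11.0% of all 27305 genes with a RefSeq promoter. TGANTCA was held by 1 of the 9 and by 3.77% of the tested genes, and CACGTG, the E-box that MYC binds, by 0 of the 9 and by 8.99%. The letters are a description of these windows only, and they stood ahead of genes that rose as well as 1 that fell. TKT, TALDO1 and IDH1, which also rose, and RPIA, which also fell, held no match to TGACNNNGC. The windows of IDH1 and IDH2 begin at a RefSeq start that lies inside the longest GENCODE gene model.

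PGD, 6-phosphogluconate dehydrogenase, carries out the NADPH-making decarboxylation that yields ribulose 5-phosphate (chr1:10398592-10420144, plus strand, GRCh38). It had 213, 190 and 159 CPM in DMSO replicates 1, 2 and 3, and 668, 601 and 682 CPM in WFA replicates 1, 2 and 3. The lowest WFA library was thus far above the highest DMSO library. Its mean went from 187 ± 27.1 to 650 ± 43.0 CPM (SD, n = 3 each). On the log2 scale this was a change of 1.80 ± 0.11 (SE, edgeR adjusted p = 7.53e-09). The change was 1.65, 1.66 and 2.10 on the log2 scale in pairs 1, 2 and 3, where a pair is the WFA and DMSO library of the same number. PGD was the 315th highest log2 fold change of the 12854 tested genes. It took 14.3% to 16.4% of the reads of the 9 enzymes with DMSO and 27.9% to 30.8% with WFA.

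PGLS, the lactonase that hydrolyses 6-phosphogluconolactone just ahead of PGD (chr19:17511629-17521288, plus strand), did not pass the test. Its values were 47.5, 49.2 and 34.0 CPM with DMSO and 39.4, 60.0 and 40.8 CPM with WFA. The groups overlapped, with DMSO replicate 3 low and WFA replicate 2 high within their groups. The log2 fold change was 0.10 (95% interval -0.24 to 0.45, edgeR adjusted p = 0.625), so the interval allows between 0.845 and 1.36 times the DMSO level. In pair 1 PGLS was 0.27 lower on the log2 scale, while in pairs 2 and 3 it was 0.29 and 0.26 higher. Without WFA replicate 2 the log2 fold change was -0.12, and without DMSO replicate 3 it was -0.04, neither past the threshold. A long non-coding RNA gene on the opposite strand shares 261 bases of exon with PGLS, and the library kit does not keep strand.

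The balance between these oxidative enzymes was therefore examined as a ratio of reads within each library, which does not depend on how libraries are scaled. PGD had 4.47, 3.85 and 4.66 times the reads of PGLS with DMSO and 16.9, 10.0 and 16.7 times with WFA. The groups did not overlap, and the ratio was 3.28-fold higher with WFA, a difference of 1.71 on the log2 scale. The exact permutation test, which was two-sided, gave p = 0.1, the lowest that this number of libraries can reach, and 0.125 after Benjamini-Hochberg adjustment over the 5 ratios examined.

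RPIA and RPE act on ribulose 5-phosphate, RPIA as the isomerase that makes ribose 5-phosphate for nucleotides and RPE as the epimerase that makes xylulose 5-phosphate. RPIA (chr2:88691644-88750935, plus strand) had 51.2, 46.9 and 50.3 CPM with DMSO and 30.3, 33.5 and 28.6 CPM with WFA. RPE (chr2:210002565-210022259, plus strand) had 141, 124 and 130 CPM with DMSO and 83.9, 84.2 and 66.9 CPM with WFA. For both genes all WFA libraries lay below all DMSO libraries. The mean of RPIA fell from 49.5 ± 2.23 to 30.8 ± 2.46 CPM (SD, n = 3 each). This was a log2 change of -0.68 ± 0.10 (SE, edgeR adjusted p = 4.85e-05). That of RPE fell from 131 ± 8.59 to 78.4 ± 9.89 CPM (SD, n = 3 each). On the log2 scale this was a change of -0.74 ± 0.10 (SE, edgeR adjusted p = 2.18e-05).

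The ratio of the pair was compared next. RPIA had 0.364, 0.379 and 0.388 times the reads of RPE with DMSO and 0.361, 0.398 and 0.428 times with WFA, so the groups overlapped and the ratio differed by 0.07 on the log2 scale (0.01 to 0.13 with any 1 library left out, exact two-sided permutation p = 0.5). In pair 2 both changed least, by -0.49 for RPIA and -0.55 for RPE, against -0.81 and -0.95 in pair 3. KANSL1L, on the opposite strand, shares 837 bases of exon with RPE and had 231 to 661 reads per library, where RPE had 720 to 2002. KANSL1L rose with WFA (log2 fold change 1.47, edgeR adjusted p = 2.98e-08), opposite in direction to RPE, and reads in the shared bases were not separated here. GENCODE 29 also lists 6 pseudogenes named after RPE, 1 named after RPIA and 1 named after PGD, and how reads shared with them were counted is not given in the sources used here. The retrogene RPEL1 had at most 3 reads in any library.

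TKT and TALDO1, the transketolase and transaldolase that pass carbon units between sugar phosphates, went the other way from RPIA and RPE. TALDO1 (chr11:747329-765024, plus strand) had 261, 256 and 210 CPM with DMSO and 470, 450 and 466 CPM with WFA. TKT (chr3:53224707-53256052, minus strand) had 215, 232 and 186 CPM with DMSO and 314, 346 and 341 CPM with WFA. Neither gene had a WFA library below any DMSO library, and for both DMSO replicate 3 was the lowest of all. TALDO1 rose from 242 ± 28.0 to 462 ± 10.4 CPM (SD, n = 3 each). This was a log2 change of 0.93 ± 0.10 (SE, edgeR adjusted p = 1.68e-06). TKT rose from 211 ± 23.2 to 334 ± 17.1 CPM (SD, n = 3 each). On the log2 scale this was a change of 0.66 ± 0.10 (SE, edgeR adjusted p = 4.33e-05). In pairs 1, 2 and 3 the log2 change was 0.85, 0.81 and 1.15 for TALDO1 and 0.55, 0.58 and 0.87 for TKT, so both changed most in pair 3.

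Relative to TALDO1, TKT was lower in each WFA library. It had 0.826, 0.905 and 0.886 times the reads of TALDO1 with DMSO and 0.669, 0.769 and 0.732 times with WFA, without overlap of the groups (log2 difference -0.27, exact two-sided permutation p = 0.1, adjusted p = 0.125). Summed over the non-oxidative branch, RPIA and RPE went from 181 ± 10.6 to 109 ± 11.9 CPM, and TKT and TALDO1 from 453 ± 49.9 to 796 ± 11.5 CPM (SD, n = 3 each). The oxidative members PGLS and PGD together had 0.390, 0.363 and 0.334 times the reads of the 4 non-oxidative members with DMSO. With WFA they had 0.788, 0.724 and 0.800 times as many, a 2.13-fold higher ratio (exact two-sided permutation p = 0.1, adjusted p = 0.125). Of the oxidative members PGD had the more reads in every library and was the one that passed the test.

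**Figure D2:**
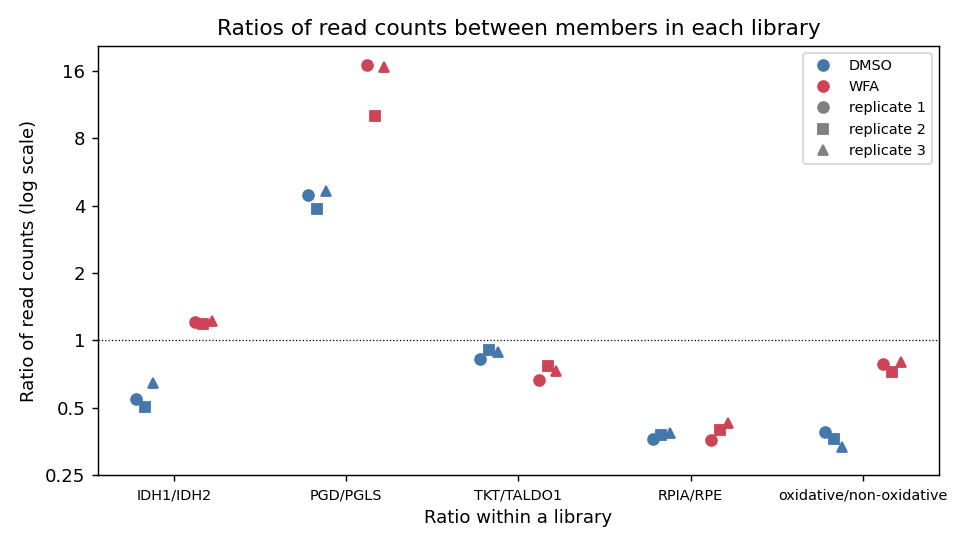
Ratio of read counts between members within each library on a log axis, with 1 symbol per library (blue DMSO, red WFA, shape by replicate). IDH1/IDH2, PGD/PGLS and the oxidative over the non-oxidative members are higher in all 3 WFA libraries, TKT/TALDO1 is lower, and RPIA/RPE overlaps.

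ME1, the cytosolic malic enzyme that makes NADPH while turning malate into pyruvate (chr6:83210389-83431071, minus strand), had the largest change of the 9. It had 34.0, 32.7 and 28.2 CPM with DMSO and 207, 168 and 179 CPM with WFA. Every WFA library was thus several times above every DMSO library. The mean went from 31.6 ± 3.03 to 185 ± 19.7 CPM (SD, n = 3 each). This was a log2 change of 2.54 ± 0.11 (SE, 95% interval 2.32 to 2.77, edgeR adjusted p = 2.09e-10). Its changes in the 3 pairs were 2.60, 2.36 and 2.66 on the log2 scale, and it ranked 128th from the top of the 12854 tested genes. ME1 and PGD were both over 2-fold higher, as were 8.11% of all tested genes. The tested genes whose log2 CPM over the 6 libraries lay nearest to ME1, after centring, were HSP90AA1, IL7R and HIBCH, at distances of 0.21, 0.29 and 0.29 log2 units. Such likeness over 6 libraries mostly reflects a similar difference between the groups, with log2 fold changes of 2.56, 2.62 and 2.40.

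IDH1 and IDH2 are the NADP-dependent isocitrate dehydrogenases, of the cytosol and peroxisomes for IDH1 and of the mitochondria for IDH2. IDH1 (chr2:208236227-208266074, minus strand) had 119, 101 and 123 CPM with DMSO and 225 CPM in each of the 3 WFA libraries. Its mean went from 115 ± 11.8 to 225 ± 0.169 CPM (SD, n = 3 each). On the log2 scale this was a change of 0.97 ± 0.09 (SE, edgeR adjusted p = 5.96e-07). The spread among the WFA libraries was below the 4.37 CPM that counting alone would give, so it understates the error of that mean. The log2 change of IDH1 was largest in pair 2 at 1.15, against 0.92 and 0.86 in pairs 1 and 3.

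IDH2 (chr15:90083045-90102504, minus strand) did not pass the test. It had 216, 201 and 191 CPM with DMSO and 187, 189 and 183 CPM with WFA. Each WFA library lay below each DMSO library, yet the gap between the groups was only 2.10 CPM. For IDH2 the log2 fold change was -0.12 (95% interval -0.30 to 0.05, edgeR adjusted p = 0.234), and when libraries were scaled by total counts it was -0.21 and passed the threshold (adjusted p = 0.0463). In the DMSO libraries IDH1 had 0.551, 0.502 and 0.647 times the reads of IDH2, and in the WFA libraries 1.20, 1.19 and 1.22 times. The order of these counts was thus reversed in every WFA library, and the ratio was 2.14-fold higher (exact two-sided permutation p = 0.1, adjusted p = 0.125).

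**Figure D3:**
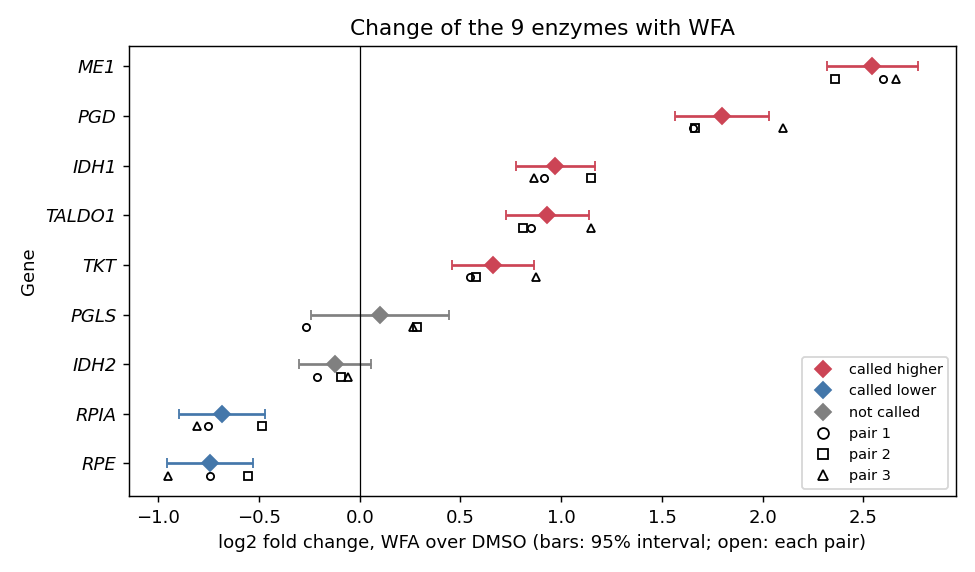
Log2 fold change of each enzyme with WFA over DMSO (diamonds, with 95% intervals from edgeR) and the change in each same-numbered pair (open symbols). The 5 rises and 2 falls lie clear of 0 in all 3 pairs, and the intervals of PGLS and IDH2 include 0.

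To compare levels between genes, CPM was divided by the length of the merged exons of each gene's coding transcripts, which gives CPM per kilobase. With DMSO the order of these levels was TALDO1 (180 ± 20.8 CPM per kilobase), PGD (99.2 ± 14.4), IDH2 (72.1 ± 4.54), TKT (69.6 ± 7.64), PGLS (42.4 ± 8.13), IDH1 (41.1 ± 4.21), RPE (37.5 ± 2.45), RPIA (26.8 ± 1.20) and ME1 (9.38 ± 0.899; SD, n = 3). Neighbours in that order whose libraries overlapped were IDH2 with TKT, PGLS with IDH1 and IDH1 with RPE. With WFA the order was PGD (345 ± 22.8 CPM per kilobase), TALDO1 (343 ± 7.73), TKT (110 ± 5.64), IDH1 (80.5 ± 0.0606), IDH2 (66.2 ± 0.961), ME1 (54.8 ± 5.84), PGLS (45.5 ± 11.2), RPE (22.4 ± 2.82) and RPIA (16.7 ± 1.33; SD, n = 3). There PGD overlapped TALDO1, and ME1 overlapped PGLS. PGD thus drew level with TALDO1 in this length-scaled level, while ME1 left the last place and RPIA took it.

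The gene lists from here on were chosen with earlier results of these data known, so their counts and medians are a description only. Of 15 neighbours that feed or drain the pathway, 13 were tested, 3 were higher and 5 lower, with a median log2 fold change of 0.05. Among all tested genes 25.8% were higher and 24.7% lower, so the share of higher calls was near that of all genes. PGM2, which isomerises pentose 1-phosphates to their 5-phosphates, fell from 193 ± 1.72 to 111 ± 10.0 CPM (SD, n = 3 each; log2 fold change -0.81, edgeR adjusted p = 2.76e-06). PRPS2 and PRPS1, the synthetases that make PRPP from the product of RPIA, fell with log2 fold changes of -0.54 and -0.34. IDNK, a gluconokinase that makes 6-phosphogluconate, the substrate of PGD, rose by 0.72 on the log2 scale (edgeR adjusted p = 0.000796). PRPSAP1, a protein associated with those synthetases, rose by 0.62 on the same scale. The 5 lower calls became 2 without DMSO replicate 1 and 3 without WFA replicate 2.

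A list of 12 genes held other makers of NADPH or NADP and the folate enzymes that work beside them. Of these 11 were tested, 3 were higher and 6 lower, with a median log2 fold change of -0.26. Over all tested genes 25.8% were higher and 24.7% lower. NADK2, the mitochondrial NAD kinase, had a log2 change of -0.59 and fell (edgeR adjusted p = 0.000105). MTHFD1, a cytosolic folate enzyme with dehydrogenase activity, and MTHFD1L, a mitochondrial formyltetrahydrofolate synthetase that makes no NADPH itself, fell by 0.75 and 0.49 on the log2 scale. MTHFD2L and ALDH1L2, which are mitochondrial folate dehydrogenases, rose with log2 fold changes of 1.03 and 0.88. 

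The citric acid cycle and its carriers, the source of the isocitrate and malate that IDH1, IDH2 and ME1 use, had 12 genes tested. Of these 2 were higher and 4 lower, with a median log2 fold change of -0.11. The share called was close to the 50.5% of all tested genes called in either direction. IDH3A, a subunit of the NAD-linked isocitrate dehydrogenase, fell with a log2 fold change of -0.33, the citrate synthase CS with -0.27 and the carrier SLC25A10 with -0.43. ACO1, the cytosolic aconitase, and SLC25A1, which exports citrate to the cytosol, rose with log2 fold changes of 0.49 (edgeR adjusted p = 0.000473) and 0.47 (edgeR adjusted p = 0.00124). Only 1 lower call was left without DMSO replicate 1.

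Pathways that spend NADPH were examined with 3 lists, and not every gene on them uses NADPH itself. Of 16 reductases 13 were tested, 8 were higher and 1 lower, with a median log2 fold change of 0.34. The shares over all tested genes were 25.8% higher and 24.7% lower. TXNRD1, the cytosolic thioredoxin reductase, went from 248 ± 13.2 to 859 ± 17.9 CPM (SD, n = 3 each; log2 fold change 1.79, edgeR adjusted p = 9.82e-10). GSR, which reduces glutathione, and the quinone reductase NQO1 rose with log2 fold changes of 1.56 and 1.83. AKR1A1, an aldehyde reductase, fell with a log2 fold change of -0.32, and lost its call without DMSO replicate 1 or 2, which left 0 lower calls. The 8 higher calls became 5 with total counts in place of TMM and 5 without DMSO replicate 3, WFA replicate 1 or WFA replicate 3.

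All 15 genes of lipid and sterol synthesis were tested, 11 were higher and 1 lower, with a median log2 fold change of 0.83. By comparison, 25.8% of all tested genes were higher and 24.7% lower. MSMO1 and SQLE, enzymes of sterol synthesis, rose with log2 fold changes of 1.32 and 1.00. ACLY, which makes acetyl-CoA from citrate and uses no NADPH, fell with a log2 fold change of -0.22. It lost its call without DMSO replicate 1, 2 or 3 and without WFA replicate 1 or 3, each of which left 0 lower calls.

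The phagocyte NADPH oxidase, a consumer of NADPH typical of monocytic cells, had 7 genes tested. Of these 1 was higher and 4 lower, against 25.8% and 24.7% of all tested genes, and the oxidase's median log2 fold change was -0.44. CYBB, its catalytic subunit, went from 176 ± 19.0 to 99.3 ± 19.3 CPM (SD, n = 3 each; log2 fold change -0.82, edgeR adjusted p = 5.72e-05). The regulatory subunits NCF1 and NCF4 fell with log2 fold changes of -1.59 and -0.44, and NCF1 has near-identical pseudogenes that make its count uncertain.

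**Figure D4:**
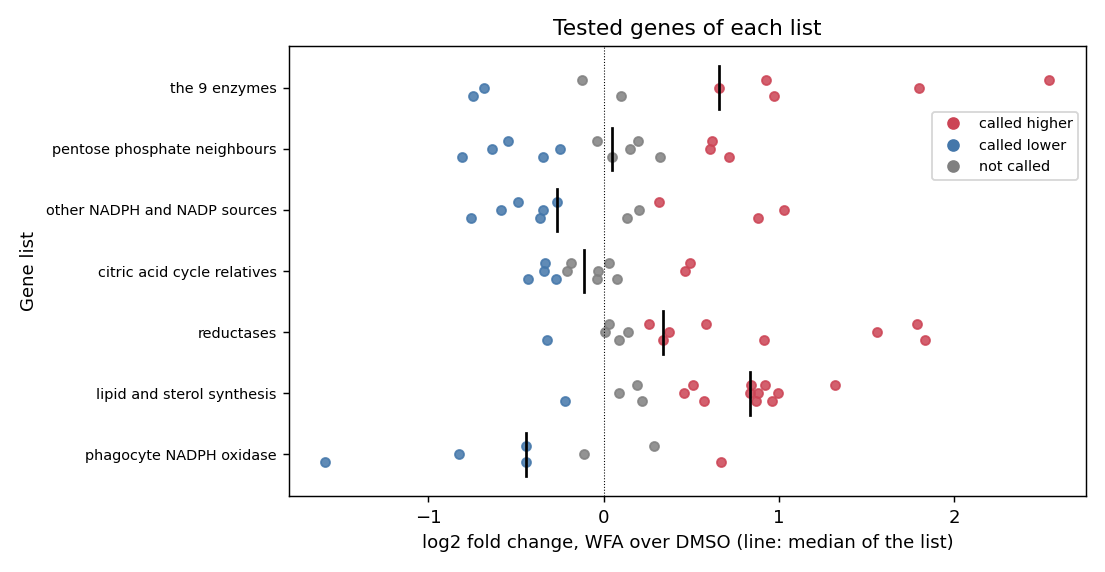
Log2 fold change with WFA over DMSO of every tested gene on each list (red called higher, blue called lower, grey not called), with the median of the list as a line. The medians run from -0.44 for the phagocyte NADPH oxidase to 0.83 for lipid and sterol synthesis, with the 9 enzymes at 0.66. The lists were chosen with earlier results of these data known.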

How the data were processed

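RNA of 3 DMSO and 3 WFA libraries of THP1 cells was prepared with TruSeq RNA v2, which does not keep strand. The authors deposited unnormalized whole-number counts of reads per gene symbol, beside rounded scaled counts and their own comparison (fold changes, p-values, dispersions), neither of which was used. The submitters' processing notes name bcl2fastq 2.19, Trimmomatic, Bowtie2, Picard, featureCounts, DESeq2 and hg38, without roles. The annotation and the handling of multiply mapped reads are not given in the sources used here.

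Counts were tested with edgeR 4.0.16 in R 4.3.3 (TMM, filterByExpr with a minimum count of 10, quasi-likelihood test, Benjamini-Hochberg adjustment over 12854 genes, threshold 0.05). Standard errors are the log2 fold change divided by the square root of F, and pair values use log2 CPM with a prior count of 2. Ratios had 0.5 counts added to each sum. The fit was tested on simulated data. Total counts were 11006035 to 13872810 per library, which sets the counting error, and 3 counts or fewer was taken as the floor.

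Libraries of one group differed beyond sampling noise (chi-square per gene 5.92 to 10.9). Same-numbered libraries carry the same experiment code in the labels and deviated together (r across genes 0.22, 0.33 and 0.25, n = 12854 genes), so the numbers pair the libraries. Gene positions and exon lengths are from GENCODE 29 and promoters from RefSeq, where 9 of 9 members matched.

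All 9 members are named, with up to 3 genes of smallest p-value per list in the direction most of its calls take, up to 2 in the other, and the 3 genes nearest to the member of smallest p-value. KANSL1L and RPEL1 are named outside this rule, and a few genes it selects are not reported here. The members and lists were chosen with earlier results of these data known. Alternatives were the replicate block, DESeq2 1.42.0, other scalings, no filter and leaving out each library.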

Additional observations from a re-analysis of the deposited data

How the results depend on the processing

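The 5 higher and 2 lower calls among the 9 enzymes were made under every alternative run, apart from IDH2, which was also called lower with total counts in place of TMM (3 lower). Of 108 values of single enzymes under the alternatives, 105 kept their direction and their side of the threshold. PGLS turned to -0.04 without DMSO replicate 3 and to -0.12 without WFA replicate 2 (range with a library left out -0.12 to 0.21), and IDH2 moved to -0.21 with total counts. With the replicate number as a block, the log2 changes were 2.54 for ME1, 1.81 for PGD, 0.98 for IDH1, 0.94 for TALDO1, 0.67 for TKT, -0.68 for RPIA and -0.75 for RPE, and no call among the 9 changed. The block also gave 2 higher calls in the phagocyte NADPH oxidase, as did the fit with no filter on low counts, against 1. It moved lower calls of citric acid cycle relatives from 4 to 6 and higher calls from 3 to 4 for the neighbours, 3 to 4 for the NADPH and NADP sources and 11 to 12 for lipid and sterol synthesis. With the block the exact sign-flip permutation test of a ratio cannot go below p = 0.25, and each ratio kept its direction.

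Reductases called higher were 5 with total counts, and 5 to 8 with a library left out. With a library left out, lower calls ranged from 0 to 1 for reductases, 0 to 1 for lipid and sterol synthesis, 2 to 5 for the pentose phosphate neighbours and 1 to 6 for citric acid cycle relatives. The cause of these moves was not tested, and a fit with a library left out also rests on fewer libraries. Over all genes, 3877 were higher and 3708 lower with the block, 2760 and 3875 with total counts, against 3311 and 3178. Each of the 9 enzymes had at least 308 reads in every library. Even so, the groups of IDH2 lay only 2.10 CPM apart. The SD that counting alone would give for IDH2 was 3.96 CPM with DMSO and 3.98 CPM with WFA.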
